A study of Sus scrofa with 21 samples.

Results

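The mitochondrial genome transcripts of the pig were described across 21 RNA-seq libraries. They were taken as all 37 rows of the deposited gene table with identifiers from ENSSSCG00000018060 to ENSSSCG00000018096, of 24358 rows in all. The rule of choice gives ENSSSCG00000018061 and ENSSSCG00000018063 as the 2 ribosomal RNA (rRNA) genes, 13 rows carry the symbols of protein genes, and the remaining 22 rows were taken as transfer RNA (tRNA) genes. The table itself pairs no name with the rRNA and tRNA rows.

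The study concerned an endovascular sampling device, a 3D-printed microbrush moved inside an artery so that endothelium, the inner lining of the vessel, stays on it. There were 10 microbrush libraries, 5 each from peripheral kidney and liver arteries, beside 4 negative control libraries from a Nitinol wire alone, 2 per artery. For comparison there were 4 libraries of aorta removed by surgery, the positive control, and 3 of whole blood. Brush, wire and blood were sampled in pigs 243K and 248K (blood 1 and blood 2 in the former, blood 3 in the latter), and aorta in pig 237053 alone. Pig and tissue therefore cannot be told apart for aorta. The labels name no strain, age, drug or genetic change for any group, and no batch. Libraries of 1 pig are not separate animals, so p-values below measure the spread between libraries, which may be technical, and not the spread between animals.

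The mitochondrial genome is a small circle that encodes rRNAs, tRNAs and the messenger RNAs (mRNAs) of core subunits of the respiratory chain. Its strands are transcribed as long precursors, from which the tRNAs are cut out so that the mRNAs and rRNAs between them are released. The rRNAs are commonly found at levels well above those of the mRNAs. All heavy-strand mRNAs share a precursor, and ND6 is the protein gene read from the light strand.

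Library totals ran from 1144932 to 11128400 counts, apart from blood 2, which held 5634 counts. Blood 2 had counts for 302 genes and microbrush 4 for 3831 genes, against 9715 to 20032 genes in the other libraries. Summed over 8 smooth muscle markers, all measured, aorta held 29440 to 47529 counts per 1000000 counts (CPM), microbrush 2940 to 97425, wire 1694 to 3360 and blood 0 to 251.9. Summed over the 6 measured of 7 erythroid markers, blood held 0 to 42468 CPM, wire 2055 to 32740, microbrush 144.8 to 3444 and aorta 56.84 to 84.83. Platelet markers, 4 measured of 7, held 229.9 to 931.3 CPM in wire, 7.434 to 1413 in microbrush, 27.01 to 43.87 in aorta and 0 to 91.86 in blood. Leukocyte markers, all 7 measured, held 456.8 to 714 CPM in wire, 48.28 to 801.4 in microbrush, 98.77 to 208.7 in aorta and 0 to 3794 in blood. Endothelial markers, 6 measured of 8, held 188.3 to 661.3 CPM in wire, 144.4 to 945.2 in microbrush, 101.6 to 176.2 in aorta and 0 to 182 in blood. Hepatocyte and kidney tubule markers, 4 each and all measured, summed to at most 162.5 and 181.3 CPM in any library. The lowest blood value is that of blood 2 in each list, no marker was at 0 in every library of a group, and the part of cell make-up in the mitochondrial values was not tested. In bulk samples, fewer cells of a type and less RNA per cell cannot be told apart.

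The share of all counts that fell in the 37 mitochondrial rows was highest in the wire libraries, at 30.88% to 49.44%. The 4 aorta libraries lay lower, at 9.79% to 16.18%, and the blood libraries lower again, with 7.758%, 1.438% and 5.723% in blood 1, 2 and 3. The microbrush libraries covered nearly the whole range, from 3.317% through a median of 16.49% to 49.08%. The means were 38.41% ± 7.896 for wire (SD, n = 4), 21.74% ± 16.53 for microbrush (n = 10), 13.1% ± 2.629 for aorta (n = 4) and 4.973% ± 3.226 for blood (n = 3). Wire, aorta and blood did not overlap one another, whereas microbrush overlapped each of them.

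The rRNA genes made up most of this spread. The 2 rRNA rows took 31.95%, 35.79%, 49.15% and 26.55% of the counts in wire 1, 2, 3 and 4, against 5.704%, 8.341%, 7.909% and 5.343% in aorta 1, 2, 3 and 4. Blood 1 held 6.368% and blood 3 held 4.334%. Blood 2 held no rRNA count among its 5634, which allows a share of up to 0.0532% for a count of 0. Each wire library thus lay above every aorta and blood library.

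In the microbrush group the rRNA share fell into low and high values. Microbrush 9, 5, 3, 2 and 10 held 2.661%, 3.19%, 5.642%, 5.719% and 6.945% of their counts in the rRNA genes, values within or below the range of aorta and blood 1 and 3. Microbrush 7 lay between at 15.12%. Microbrush 1, 8, 6 and 4 held 31.68%, 33.21%, 38.49% and 48.45%, within the wire range. The 4 high libraries included both arteries and both pigs, but unevenly. All but microbrush 1 were of the liver artery, and all but microbrush 6 were of pig 248K. Of the low libraries, all but microbrush 9 were of the kidney artery, and all but microbrush 3 were of pig 243K. Binomial 95% intervals (Wilson) of the rRNA share reached at most 0.0676 percentage points to either side in the libraries other than blood 2, and they cover counting error only.

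The 13 mRNAs followed another order, with aorta highest. As a percent of the counts outside the rRNA genes, a scale that does not move with the rRNA share, the mRNAs held 7.57%, 8.543%, 6.15% and 4.693% in aorta 1, 2, 3 and 4. Blood held 1.483%, 1.438% and 1.451% in blood 1, 2 and 3. The blood 2 value rests on 81 counts, all in ND5, with a 95% interval (Wilson) of 1.158% to 1.783%, so it does not describe the 13 mRNAs together. Wire 1, 2, 3 and 4 held 5.227%, 3.102%, 0.535% and 5.891%. Microbrush ran from 0.672% through a median of 2.866% to 7.279%. All aorta libraries lay above all blood libraries, and wire and microbrush each overlapped both.

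**Figure D1:**
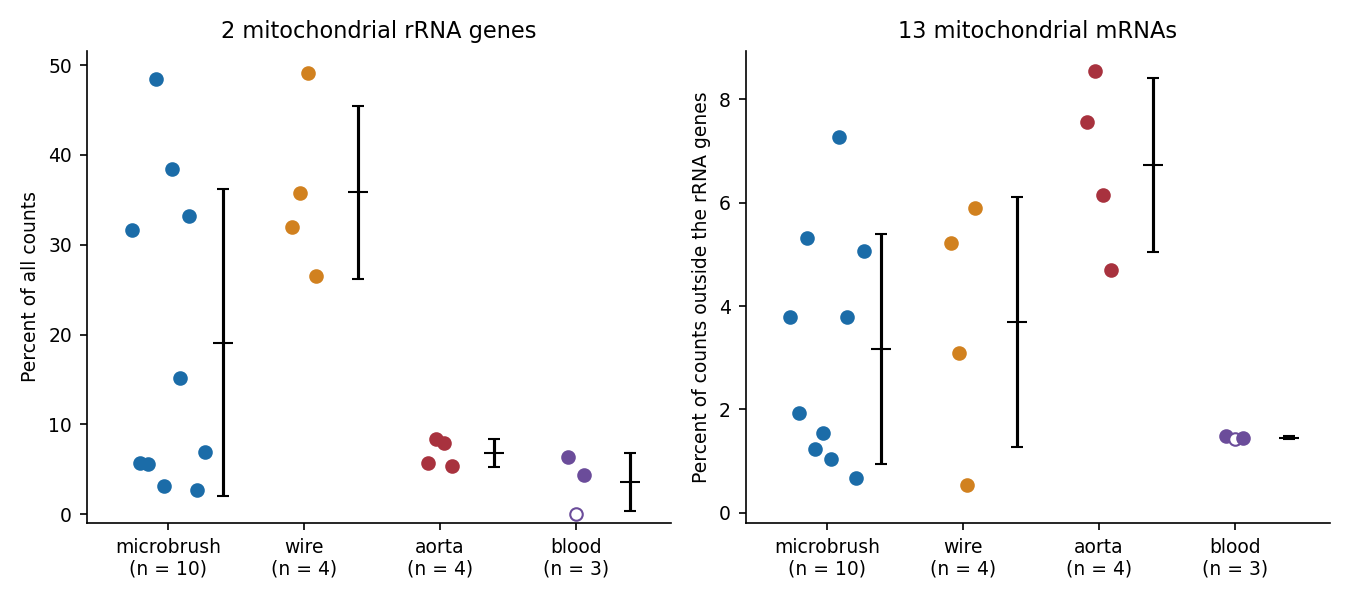
Share of counts by library. Left, percent of all counts in the 2 mitochondrial rRNA genes; right, the 13 mitochondrial mRNAs as a percent of the counts outside the rRNA genes. Each point is a library, the open point is blood 2, and bars show the mean and SD. On the left the 4 wire libraries sit between 26.55% and 49.15%, above aorta and blood, and on the right the aorta libraries sit between 4.693% and 8.543%, above blood.

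The ratio of rRNA to mRNA counts set these side by side within each library. Aorta 1, 2, 3 and 4 held 0.799, 1.065, 1.396 and 1.203 rRNA counts per mRNA count, the lowest group range once blood 2 is set aside. Wire 1, 2, 3 and 4 held 8.983, 17.97, 180.7 and 6.136. Blood 1 and blood 3 held 4.585 and 3.121, and blood 2 held 0 rRNA counts against 81 mRNA counts, which allows a ratio of up to 0.037. Every wire library lay above every aorta and blood library, and both deep blood libraries lay above every aorta library.

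Microbrush ratios ran from 1.123 through a median of 3.602 to 76.55. Microbrush 3, at 1.123, lay inside the aorta range, and microbrush 4 and microbrush 6, at 76.55 and 60.51, lay above all wire libraries other than wire 3. The median was 2.133 in the 5 kidney artery libraries and 13.1 in the 5 liver artery libraries, and 3.133 in pig 243K against 12.21 in 248K, with overlap in both cases. Scaled by the combined gene lengths of 2531 bases for the rRNAs and 11409 bases for the mRNAs, the median rRNA level per kilobase was 5.112 times the mRNA level in aorta, 16.24 times in microbrush and 60.75 times in wire. In blood 1 and blood 3 it was 20.67 and 14.07 times. On this per-length scale rRNA exceeded mRNA in all 20 libraries other than blood 2.

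**Figure D2:**
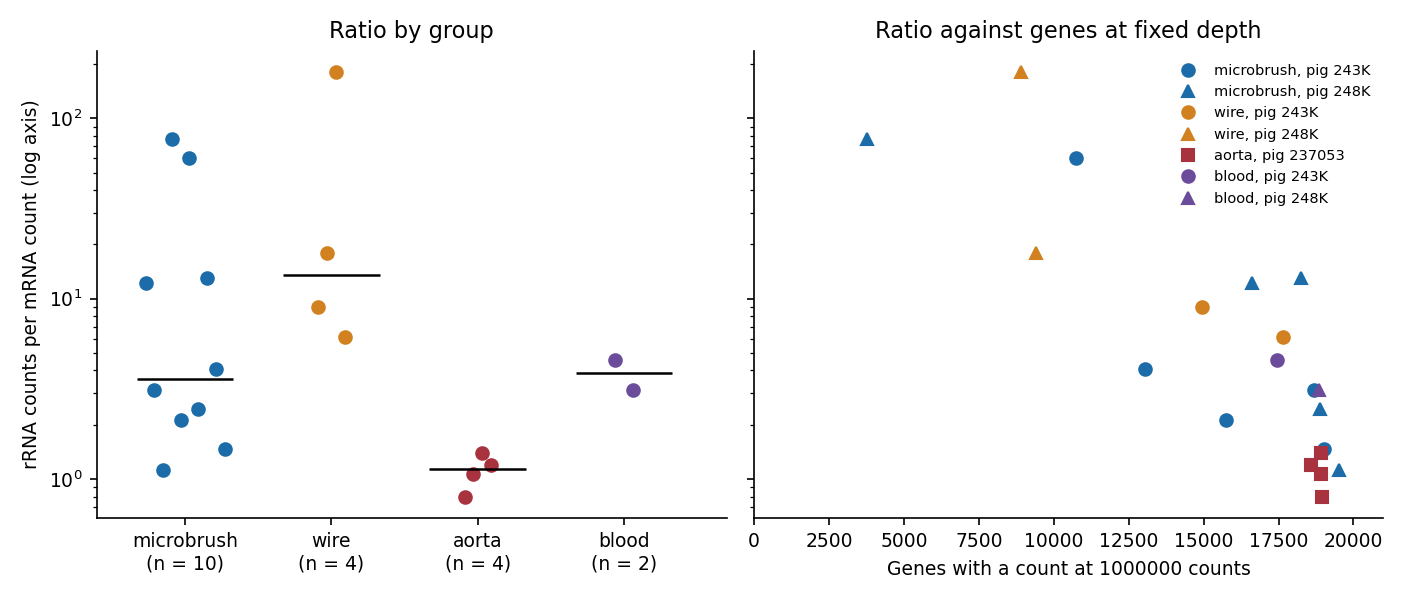
Counts of mitochondrial rRNA per count of mitochondrial mRNA, on a log axis. Left, each point is a library and the line is the group median; right, the same ratio against the genes with a count after thinning to 1000000 counts, by pig. Blood 2, with no rRNA count, is not drawn. Wire 3 is highest at 180.7, the 4 aorta libraries lie between 0.799 and 1.396, and the 4 libraries with the fewest genes have the 4 highest ratios.

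The libraries with the fewest genes had the highest ratios, but the order did not hold beyond them. After thinning to 1000000 counts, microbrush 4, wire 3, wire 2 and microbrush 6 had the fewest genes, 3754, 8891, 9394 and 10748, and these were the libraries with the 4 highest ratios. Microbrush 9 had the next fewest genes, 13050, at a ratio of 4.071, whereas microbrush 8 had 18264 genes at 13.1. The aorta libraries had 18594 to 18960 genes. The thinned counts include the rRNA counts, so a library with a high rRNA share keeps fewer counts for other genes. Platelet marker sums in the 4 libraries with the fewest genes were 1013 CPM in microbrush 4, 931.3 in wire 3, 1413 in microbrush 6 and 229.9 in wire 2. Microbrush 8, with a ratio of 13.1, held 915.8. Endothelial marker sums were 803.7, 549.7, 945.2 and 188.3 CPM in the same 4 libraries. They were 543.8 in microbrush 8 and 661.3 in wire 4, with a ratio of 6.136. The part of these measures in the ratio was not tested.

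Group differences in these per-library values were tested by exact two-sided permutation of the libraries, with Benjamini-Hochberg adjustment over 18 tests (3 measures in 6 comparisons). The measures were the log2 ratio of rRNA to mRNA with 0.5 added to each sum, the percent of counts in mitochondrial rows, and the mRNA percent outside the rRNA genes. No test passed an adjusted p of 0.05, and the smallest adjusted p was 0.0735. With 4 libraries against 4, or 4 against 3, the smallest p that the permutations can give is 0.0286.

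Between wire and aorta, the log2 ratio was higher in wire by 4.233 (exact permutation p = 0.0286, adjusted p = 0.0735, 4.362 ± 2.186 against 0.129 ± 0.341, SD, n = 4 each) and the mitochondrial percent by 25.31 points (same p). Without wire 3, the log2 difference was 3.188. The mRNA percent outside rRNA differed by -3.051 points, wire minus aorta (exact permutation p = 0.114), and the groups overlapped. Without wire 3 this difference was -1.999 points.

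Between microbrush and wire, all 3 measures overlapped. The log2 ratio differed by -1.734 (exact permutation p = 0.202), the mitochondrial percent by -16.67 points (exact permutation p = 0.0949) and the mRNA percent outside rRNA by -0.521 points (exact permutation p = 0.709). Within pigs, the log2 ratio differed by -0.644 in pig 243K but by -2.825 in 248K, and the mitochondrial percent by -19.93 and -13.41 points. The mRNA percent did not hold a direction within pigs: microbrush minus wire came to -3.508 points for pig 243K and 2.466 for 248K. By artery, the difference in log2 ratio was -1.977 in the kidney and -1.491 in the liver. Without wire 3, the pooled difference in log2 ratio was -0.689. The mRNA difference was -0.00808 points without wire 1, -1.572 without wire 3, 0.213 without wire 4 and -0.305 without microbrush 4.

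Between microbrush and aorta, the log2 ratio was higher in microbrush by 2.499 (exact permutation p = 0.035, adjusted p = 0.0787), with overlap. The mRNA percent outside rRNA differed by -3.571 points, microbrush minus aorta (exact permutation p = 0.016, adjusted p = 0.0735), also with overlap. The mitochondrial percent differed by 8.641 points (exact permutation p = 0.344), by 5.603 points without microbrush 4 and by 3.269 points between medians. Between medians, the log2 ratio differed by 1.658. None of these passed the adjusted threshold.

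Comparisons with blood turned on blood 2 for the ratio. The log2 ratio of blood 2, -7.349, comes from a count of 0 and the 0.5 added. The wire minus blood difference in log2 ratio was 5.532 with blood 2 (exact permutation p = 0.0286, adjusted p = 0.0735). Without blood 2 the difference was 2.443 (exact permutation p = 0.2, adjusted p = 0.279, 15 splits). The groups did not overlap either way. Microbrush minus blood was 3.798 with it (exact permutation p = 0.108) and 0.709 without it. Aorta minus blood was 1.299 with it (exact permutation p = 0.886) and -1.791 without it. The mitochondrial percent of wire and of aorta exceeded that of blood by 33.44 and 8.128 points, and the aorta mRNA percent outside rRNA exceeded that of blood by 5.282 points, each with no overlap (exact permutation p = 0.0286, adjusted p = 0.0735). Microbrush overlapped blood in all 3 measures.

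Of the rRNA rows, ENSSSCG00000018063 held more counts than ENSSSCG00000018061 in all 20 libraries with rRNA counts. The count ratio of the first to the second was 1.704, 1.829, 1.883 and 1.578 in aorta 1 to 4, and 1.314, 1.893, 1.765 and 1.199 in wire 1 to 4. In microbrush it ran from 1.077 through a median of 1.364 to 1.838, and in blood 1 and blood 3 it was 1.345 and 1.165. The aorta values all lay above both blood values, and wire and microbrush overlapped both groups. The total rRNA share varied far more than this balance, from 2.661% to 49.15% against 1.077 to 1.893 in these 20 libraries. Wire 3 and microbrush 4, with the highest rRNA shares, had ratios of 1.765 and 1.525.

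In the gene-wise test, edgeR's quasi-likelihood fit over all genes with TMM scaling, the rRNA genes were the members that changed, and they did so between wire and aorta. ENSSSCG00000018061 was at 138083, 123730, 177789 and 120714 CPM in wire 1 to 4 and at 21097, 29489, 27435 and 20723 CPM in aorta 1 to 4, before scaling. The groups did not overlap, and its log2 fold change was 3.53 (SE 0.73, adjusted p = 0.0218). ENSSSCG00000018063 was at 181428, 234181, 313734 and 144794 CPM in wire 1 to 4 and at 35947, 53925, 51653 and 32708 CPM in aorta 1 to 4. Its groups did not overlap either, and its log2 fold change was 3.43 (SE 0.77, adjusted p = 0.034). These 2 were the calls among the 18 members tested in this comparison, where 3.57% of all 15313 genes were called. DESeq2 called both as well, where it called 7.48% of the 14923 genes that it gave an adjusted p. Both calls were lost when all 21 libraries shared a common fit (adjusted p = 0.485 and 0.526), and when any 1 of the 4 aorta libraries was left out (adjusted p from 0.0837 to 0.188). Without wire 2 the call of ENSSSCG00000018063 was lost (adjusted p = 0.0625).

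The 13 mRNAs were all tested between wire and aorta, and none passed the threshold. All 13 log2 fold changes were negative, with a median of -0.66 against -0.29 over all genes, and none had an unadjusted p under 0.05 with edgeR nor a call with DESeq2. The values ran from -1.09 (SE 0.75) for ND5, a large subunit of complex I, to -0.17 (SE 0.72) for ATP8, a small subunit of ATP synthase. The rRNAs and mRNAs thus had log2 fold changes of opposite sign, although the ATP8 value turned to 0.11 without wire 3.

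Between microbrush and wire, edgeR called no gene (0% of 16439), and 518 genes had an unadjusted p under 0.05. DESeq2 called no member, where it called 0.616% of the 16390 genes that it gave an adjusted p. The log2 fold changes of the rRNA rows were -1.02 (SE 1.09) for ENSSSCG00000018061 and -1.38 (SE 1.09) for ENSSSCG00000018063. The mRNA values were all negative, from -0.78 to -0.26 with a median of -0.43 against 0.17 over all genes. RLE scaling moved the mRNA median to -0.06 and made 4 of the 13 positive, namely ND4, ND5, ND6 and CYTB. Of the members, the tRNA row ENSSSCG00000018079 had an unadjusted p under 0.05 (log2 fold change -2.97, SE 0.97, adjusted p = 0.725).

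Between microbrush and aorta, edgeR called 0.125% of 16776 genes and none of the 19 members tested. DESeq2, which called 1.25% of the 16448 genes that it gave an adjusted p, called no member either. The rRNA values were 2.55 (SE 1.26) and 2.08 (SE 1.21), and all 13 mRNA values were negative, with a median of -1.25 against -0.17 over all genes. ND4L, a small subunit of complex I, was the member with an unadjusted p under 0.05 (log2 fold change -1.36, SE 0.63, adjusted p = 0.931). As between wire and aorta, rRNA and mRNA values lay on opposite sides of 0. The 2 comparisons share the aorta libraries.

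Against blood, edgeR called none of the 15 rRNA and mRNA rows. Between microbrush and blood it called 0.0119% of 16874 genes, between wire and blood 0% of 14483 genes (148 at an unadjusted p under 0.05), and between aorta and blood 1.49% of 16046 genes. No rRNA or mRNA row had an unadjusted p under 0.05 in these comparisons. DESeq2 called ENSSSCG00000018063 between wire and blood (log2 fold change 4.78, adjusted p = 0.0462). There it called 3.52% of the 3750 genes that it gave an adjusted p, far fewer genes than edgeR tested. It called no rRNA or mRNA row between microbrush and blood (7.81% of 5417 such genes) or between aorta and blood (9.37% of 16033). The mRNA medians were 1.32 for microbrush, 1.87 for wire and 2.24 for aorta over blood, with all 13 positive in each, against 0.4, 0.33 and 0.35 over all genes. Standard errors were wide, from 0.98 to 2.31 for the mRNAs between aorta and blood.

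Without blood 2, the aorta and blood comparison called 28.5% of all genes and 7 of the 13 mRNAs, all higher in aorta. These were the complex I subunits ND1, ND3, ND4L, ND4, ND5 and ND6 and the complex III subunit CYTB, with log2 fold changes from 1.58 for ND4L to 2.49 for ND5. The complex I subunit ND2, the cytochrome c oxidase subunits COX1, COX2 and COX3 and the ATP synthase subunits ATP6 and ATP8 were not called in that fit. The rRNA rows were at -0.35 and 0.09. Since aorta came from another pig than the blood, pig and tissue cannot be told apart here.

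**Figure D3:**
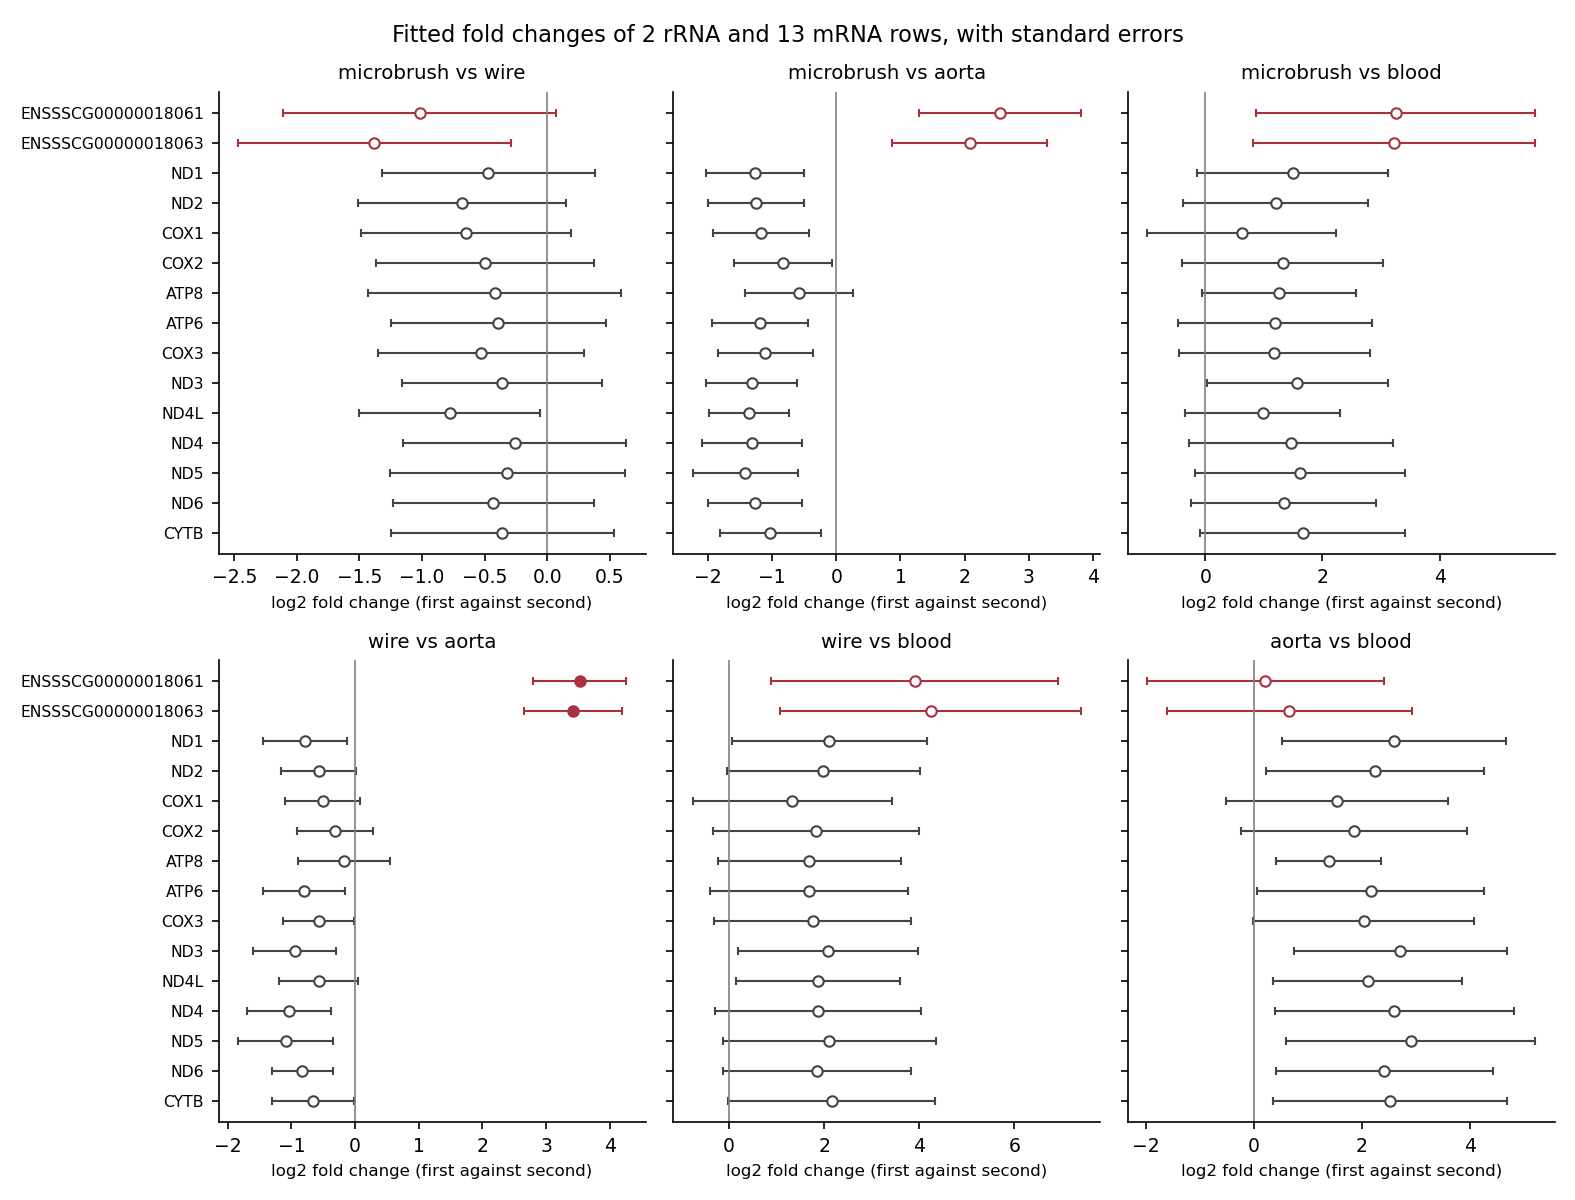
Log2 fold changes of the 2 rRNA rows (red) and the 13 mRNAs (dark) in the 6 comparisons, first group against second. Bars are standard errors worked out from the edgeR test statistic, and x axes differ between panels. Filled points passed the adjusted p threshold of 0.05, which only the rRNA rows between wire and aorta did, at 3.53 and 3.43. Against aorta the rRNA and mRNA values lie on opposite sides of 0.

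Among the mRNAs, 5 genes together held 61.04% to 72.08% of mitochondrial mRNA counts in the 20 libraries other than blood 2. They were ND5 (MT:12935-14755 of the Sscrofa11.1 build) and ND4 (MT:11359-12736), membrane subunits of complex I, COX2 (MT:8203-8890) and COX1 (MT:6511-8055), subunits of cytochrome c oxidase, and CYTB (MT:15342-16481), the haem-bearing subunit of complex III. ND5 held 20.62% to 25.95% of mitochondrial mRNA counts in aorta, 7.169% to 21.66% in wire, 8.291% to 26.2% in microbrush, and 13.05% and 17.91% in blood 1 and blood 3. In blood 2 all 81 mitochondrial counts lay in ND5, a single row of the 13.

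COX2 was high in some libraries where ND5 was low. COX2 held 27.67% of mRNA counts in microbrush 6, where ND5 held 8.291%, and 20.82% in wire 3, where ND5 held 7.169%. In aorta 1 COX2 held 7.866% and ND5 held 25.36%. The count ratio of COX2 to ND5 was 0.31, 0.402, 0.595 and 0.524 in aorta 1 to 4 and 0.552, 0.484, 2.904 and 0.99 in wire 1 to 4. It was 1.181 and 0.731 in blood 1 and blood 3, and in microbrush it ran from 0.3 through a median of 0.704 to 3.338. Both blood values lay above all aorta values, and microbrush and wire overlapped aorta. Shares of a whole are not independent, and no test was made of them.

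COX1, the catalytic subunit of cytochrome c oxidase, held 16.27% and 14.26% of mRNA counts in blood 1 and blood 3. Its share was 8.838%, 9.313%, 7.538% and 9.535% in aorta 1 to 4, 9.122%, 12.89%, 12.76% and 10.31% in wire 1 to 4, and 7.352% to 13.71% in microbrush. Both blood values exceeded all values of the other groups. ND4 held 14.28% to 16.79% in aorta and 11.16% to 13.64% in wire, without overlap between them. Blood 1 and blood 3, at 12.91% and 12.84%, lay within the wire range. Microbrush, at 9.717% to 15.67%, overlapped all of these groups. ND2 was almost constant in wire, at 4.655% to 4.733%, and ran from 1.184% to 5.003% in microbrush.

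**Figure D4:**
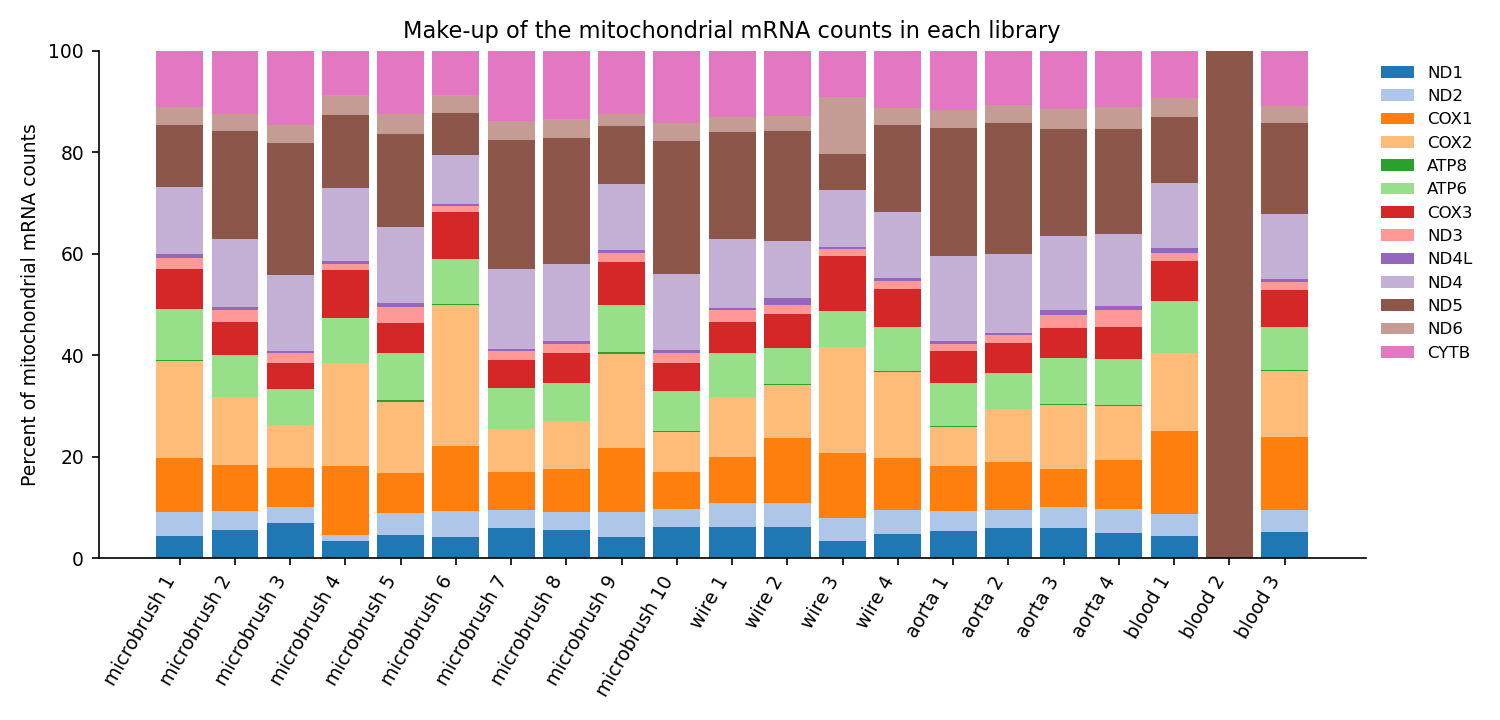
Make-up of the mitochondrial mRNA counts in each library, as the percent of the summed counts of 13 mRNAs (y axis, from 0), with 1 bar per library. ND5 is wide in the aorta bars (20.62% to 25.95%) and narrow in microbrush 6 (8.291%) and wire 3 (7.169%), where COX2 is wide, and blood 2 is ND5 alone.

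ND6 (MT:14739-15266), the light-strand complex I subunit, had its highest share in wire 3. It held 3.374% to 4.382% of mRNA counts in aorta, 2.496% to 3.942% in microbrush, and 3.728% and 3.37% in blood 1 and blood 3. Wire 1, 2 and 4 held 2.844%, 3.119% and 3.329%, whereas wire 3 held 11.16%. ND6 and ND5 overlap by 17 bases, and the sources used here do not give the strand setting of the counting. Without strand, reads of ND6 and of the transcript opposite to it cannot be told apart.

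Per kilobase of gene, COX2 had the highest median mRNA level in all 4 groups (blood without blood 2). It held 20.07% of mRNA counts per kilobase in microbrush, 20.81% in wire, 15.43% in aorta and 20.72% in blood. ATP6 (MT:9120-9800), a subunit of ATP synthase, followed at 12.52%, 11.59%, 12.86% and 13.76%, although ND5 in aorta, at 12.79%, did not differ from it beyond the spread. ATP8 (MT:8959-9162) was lowest in each group, at 0.273%, 0.557%, 0.341% and 0.498% per kilobase. ATP8 and ATP6 are known to lie on a shared mRNA, and their genes overlap by 43 bases of the 204 of ATP8. The ND4L gene (MT:11069-11365), which shares an mRNA with ND4 and overlaps it by 7 bases, was at 1.795% per kilobase in microbrush against 10.65% for ND4. The short genes of both pairs were thus below their long partners, on the scale of percent per kilobase. Full gene lengths were used, with no correction for the length of the sequenced fragments. The gap need not be a difference in mRNA level.

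**Figure D5:**
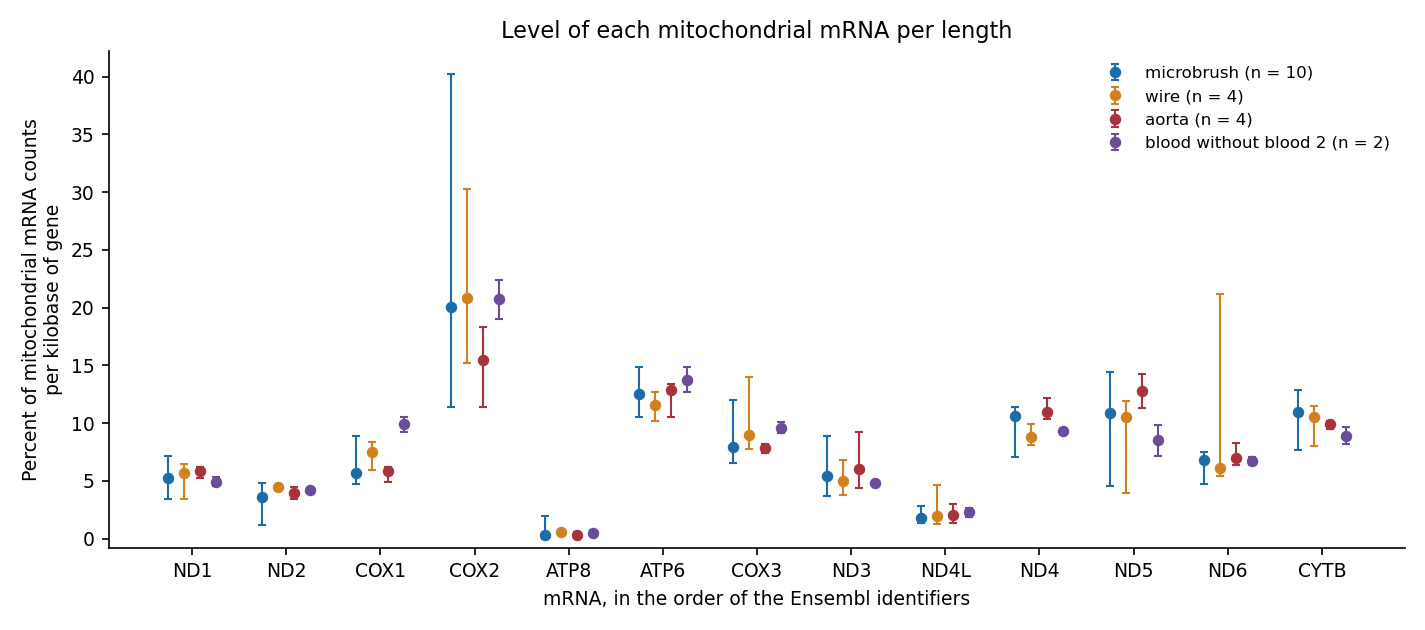
Level of each mitochondrial mRNA as percent of mitochondrial mRNA counts per kilobase of gene, in the order of the identifiers; points are group medians and bars reach from the lowest to the highest library, with blood 2 left out. COX2 has the highest median in each group (15.43% to 20.81%) and ATP8 the lowest, and the ND6 bar of wire reaches 21.14% through wire 3.

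The 22 tRNA rows were sparse. They held 4172 counts over all libraries, and 11 of them held fewer than 30. ENSSSCG00000018079 held 1998 of these counts, ENSSSCG00000018072 held 857 and ENSSSCG00000018062 held 302. Per 1000 mRNA counts, tRNA rows held 1.302, 13.46, 47.07 and 0.333 counts in wire 1, 2, 3 and 4, against 0.766 to 2.158 in aorta and 0.167 to 5.269 in microbrush. Wire 3 and wire 2 were thus the highest of all libraries on this scale, and of ENSSSCG00000018079 alone wire 3 held 828 counts and wire 2 held 304. The mRNAs of wire 3 were only 0.272% of its counts. As a percent of all counts, tRNA rows held 0.00463%, 0.0268%, 0.0128% and 0.00144% in wire 1 to 4. Aorta held 0.00423% to 0.0122% and microbrush 0.000639% to 0.0104%, so wire 3 lay close to the highest aorta library. Between 2 and 4 tRNA rows passed the filter in each comparison, only through the groups where they were counted, and the main edgeR fits called none. Other settings called some. DESeq2 called ENSSSCG00000018079 between wire and blood (adjusted p = 0.0115) and between aorta and blood (adjusted p = 0.00241). Without blood 2, where edgeR called 28.5% of genes, it called ENSSSCG00000018062, ENSSSCG00000018067, ENSSSCG00000018068, ENSSSCG00000018073 and ENSSSCG00000018079, all higher in aorta than blood. Counts this low gave no usable level for most tRNA genes.

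The nuclear genes that transcribe and process mitochondrial RNA were not called in any of the 6 comparisons. Over all genes tested, edgeR called 0% to 3.57% in these comparisons. DESeq2 called 0.616% to 9.37% of the genes that it gave an adjusted p. At the edgeR shares, 0 calls in a list of this size says little about the list. Of 54 such genes on a list of transcription, processing, decay and translation factors, 51 were in the table and 47 to 50 were tested per comparison, with 0 called by edgeR or DESeq2. At most 2 had an unadjusted p under 0.05 in edgeR: 2 of 50 between microbrush and wire against 3.15% of all genes, and 2 of 49 between aorta and blood against 11.2%. Of 63 rows for proteins of the mitochondrial ribosome, 52 to 61 were tested and edgeR called 0. The most at an unadjusted p under 0.05 were 7 of 60 between aorta and blood, near the 11.2% of all genes. In that comparison DESeq2 called 5, near its 9.37% of 16033 genes. Between wire and aorta, the list medians were -0.45 and -0.1 against -0.29 over all genes.

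TFAM, which packages mitochondrial DNA and starts transcription, was at 5.006 to 31.39 CPM in wire and 12.47 to 28.35 CPM in aorta, with overlap. POLRMT, the mitochondrial RNA polymerase, was at 1.638 to 45.03 CPM in wire and 29.69 to 41 CPM in aorta, also with overlap. Their log2 fold changes between wire and aorta were 0.06 (SE 0.92) and -0.64 (SE 0.95), where those of the rRNA rows were over 3. The transcription factors TFB2M and TEFM were at -0.27 (SE 1.42) and -0.45 (SE 1.54) in that comparison. LRPPRC, which stabilises mitochondrial mRNAs, was at 0.29 (SE 0.83), and its partner SLIRP was too low to be tested, at 2.495 CPM or less in every library.

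The 4 nuclear genes of the expression list with the smallest unadjusted p-values act in RNA processing, decay and translation. HSD17B10, a subunit of the mitochondrial RNase P that cuts tRNAs from precursors, was listed at 0 in all 4 wire libraries and at 0 to 22.41 CPM in microbrush, with 3 of 10 microbrush libraries at 0 (adjusted p = 0.68). REXO2, which degrades short RNAs in mitochondria, had a log2 fold change of 3.25 (SE 1.48, unadjusted p = 0.0334) between microbrush and wire, with 0 to 161.3 and 0 to 4.624 CPM. Between aorta and blood, PNPT1, the mitochondrial polynucleotide phosphorylase, was at -1.86 (SE 0.92, adjusted p = 0.413), and PTCD3, a protein of the small mitochondrial ribosomal subunit, was at -1.74 (SE 0.88, adjusted p = 0.441). None of these passed the threshold.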

How the data were processed

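Values were the estimated counts per gene that the authors deposited, not scaled between libraries. Per the labels' protocols, the RNAdvance Tissue kit served for extraction of total RNA and SMARTer Pico for the libraries, and per the submitters' processing notes Salmon and DESeq2 were used with build Sscrofa11.1. Versions, the strand setting and any removal of rRNA are not given in the sources used here, so a share of rRNA counts is what remained after library preparation. Since 11.9% of them are not whole, they were rounded to whole counts before testing.

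With edgeR 4.0.16 (R 4.3.3), each fit used only the libraries of the groups compared, after filterByExpr (minimum count 10) and TMM scaling, and genes were read from the robust quasi-likelihood test at a Benjamini-Hochberg adjusted p of 0.05 over all genes tested. That test gives no standard error. The SE was worked out as the absolute log2 fold change over the square root of the F statistic. Per-library measures were tested by exact permutation. Coordinates and lengths of the 13 protein genes were matched by symbol to the RefSeq table of Sscrofa11.1, and the combined rRNA length was taken from it. Both tests were checked on simulated data.

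Members and lists were chosen with earlier results of these data known. Nuclear genes were named by rule: the 4 smallest unadjusted p-values of the expression list over the 6 comparisons, and a fixed set of TFAM, POLRMT, TFB2M, TEFM, LRPPRC and SLIRP. Alternatives were RLE scaling, DESeq2 1.42.0, other filters, the rRNA rows left out, a common fit, pig as a replicate block, each pig and organ alone, and libraries left out. Shares called by DESeq2 are of the genes that it gave an adjusted p. No 2 libraries of a group were copies.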

Additional observations from a re-analysis of the deposited data

Results flagged for a closer look

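In 51 checks of a library far from the others of its group, 4 shares of mitochondrial mRNA counts stood apart, and chance flags about 1 in 20. ND6 held 11.16% in wire 3. ND2 held 1.184% in microbrush 4, ND4 held 9.717% in microbrush 6, and ND6 held 2.496% in microbrush 9.

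The microbrush minus wire difference in mRNA percent outside the rRNA genes differed between the pigs by -5.974 points: -3.508 points in pig 243K and 2.466 points in pig 248K (exact permutation p = 0.0204 over 441 splits, adjusted p = 0.122 over 6 such tests). These splits exchange brush and wire libraries within each pig. They assume no device difference in either pig, so the p does not test for an equal difference in both. Each pig had 2 wire libraries.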

How the results depend on the processing

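Of the values that answer a comparison, 266 recomputed values were labelled unchanged, 16 counts moved by over 1.5 times and 5 turned direction. Unchanged means the same direction and side of the threshold or, for a count of members called, a change of at most 1.5 times. No per-library test passed the threshold at first, and some alternatives had too few splits to pass it. Staying on the same side therefore says little for those tests. The microbrush minus wire mRNA percent turned to 0.213 points without wire 4 (range without 1 wire library -1.572 to 0.213) and 2.466 in pig 248K alone. The aorta minus blood log2 ratio turned to -1.463 by medians and -1.791 without blood 2 (range without 1 library -1.791 to 2.982). Members called between wire and aorta fell from 2 to 0 with the rRNA rows left out (they could then not be called) and in the common fit, and ran from 0 to 2 with 1 library left out. Between wire and blood DESeq2 called 2, ENSSSCG00000018063 and the tRNA row ENSSSCG00000018079, where it called 3.52% of 3750 genes. Between aorta and blood the calls were 1 with RLE, 3 with no filter, 1 at a minimum count of 50 and 1 with DESeq2 (9.37% of 16033 genes), all tRNA rows. The share over all genes is not given for RLE and the other filters. Without blood 2 the calls were 12, mRNAs and tRNA rows, where 28.5% of 17082 genes were called. With 1 library left out they ran from 0 to 12. Of single genes, 22 recomputed fold changes turned sign, with an adjusted p of 0.761 or above. Between microbrush and wire these were ND4 0.16, ND5 0.19, ND6 0.06 and CYTB 0.08 with RLE and with DESeq2, ND3 0.07, ND4 0.01 and ND5 0.01 without wire 1, and COX2 0.02, ATP8 0.06, ATP6 0.01, ND4 0.13 and ND5 0.02 without wire 4. Without wire 3, where each was lowest, COX2, ATP8, ATP6, ND3, ND4 and ND5 were at -0.77, -0.71, -0.68, -0.64, -0.54 and -0.62. COX1 between microbrush and blood was -0.09 without microbrush 4 and blood 2. ATP8 between wire and aorta was 0.11, 0.04 and 0.08 without wire 3, aorta 3 and aorta 4 and as low as -0.71 without wire 4, and ENSSSCG00000018061 between aorta and blood was -0.35 without blood 2 and 1.65 without blood 1. Apart from the rRNA rows left out, the cause was not tested. With pig as a replicate block, possible where groups share pigs, 0 members were called. Blood 2 and the sparse tRNA rows limit what depth can show.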
